A study of Mus musculus with 12 samples.

Results

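H4K12ac, the acetylation of histone H4 at lysine 12, was examined at 50 genes of synaptic vesicle release in neuronal nuclei of the mouse hippocampus. The genes were taken as a list and not by a measured value, although earlier results of these data were known at the time. All 50 were found among the 55413 genes of the GENCODE M21 annotation (GRCm38), with 1168 of the 144781 acetylated regions at them. They comprise 10 synaptotagmins and DOC2 proteins, most of them calcium sensors, 10 SNAREs, complexins and proteins that take SNAREs apart, 11 active zone and priming proteins, 7 vesicle proteins, 5 genes of Rab GTPases and a Rab effector (4 and 1), 3 vesicular glutamate transporters and 4 endocytosis proteins.

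ChIP-Seq peak lists were available for 5 *Tip60* cKO and 5 control mice. *Tip60* cKO mice carried the *CaMKCreERT2* driver on *Tip60* f/f, so that the acetyltransferase TIP60 (KAT5) was deleted in excitatory forebrain neurons, and the controls were *Tip60* f/f mice with no driver. Both groups received tamoxifen at 8 to 10 weeks of age and were used at day 10, and the labels give male C57BL/6J mice of 3 months for both, whereas the methods of the study name a different substrain and either sex. The driver acts in excitatory neurons, and other sorted nuclei, such as those of inhibitory neurons, may keep TIP60, which was not measured here. For each genotype 1 pooled input served as the background for all 5 mice.

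Vesicles filled with glutamate dock at the active zone, are primed by MUNC13 and RIM proteins, and fuse when synaptotagmins bind calcium and SNARE proteins zip the membranes together. NSF then pulls the SNAREs apart, and dynamin, amphiphysin, endophilin and synaptojanin retrieve the membrane. H4K12ac is an acetyl mark of active chromatin, found mainly around transcription start sites (TSSs) and also in transcribed gene bodies.

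The libraries held 22864189 to 37923809 tags and their lists 64245 to 136409 peaks. *Tip60* cKO replicate 5 had the lowest number of tags and of peaks. Markers of neurons and of excitatory hippocampal neurons carried a TSS peak in all 10 lists for 6 of 6 and 5 of 5 genes, compared with 0 of 5 for inhibitory neurons, 0 of 5 for astrocytes, 0 of 5 for microglia, 0 of 5 for endothelium and 1 of 5 for oligodendrocytes. Mean TSS coverage over the neuron markers was between 33.1 and 50% in controls and between 21.8 and 37.3% in *Tip60* cKO, ranges that overlap. Over the excitatory markers it was 40.2 to 61.9% and 24.6 to 60%, over the astrocyte markers 2.57 to 5.6% and 0 to 2.15%, which did not overlap, and over the oligodendrocyte markers 9.92 to 12.8% and 5.71 to 12.0%. It was at most 4.13% over the inhibitory, microglial and endothelial markers. *Syt1* and *Snap25* among the neuron markers and *Slc17a7* among the excitatory markers belong to the 50 genes. The values of both marker sets are therefore not independent of those genes. The part of these cell types in the results was not tested. *Mag*, *Mog*, *Aqp4*, *Gad1* and *Cx3cr1* had no TSS peak in any list. *Kat5* itself had a TSS peak in all 10 lists, which does not check the deletion. Between 45.3 and 57.8% of peaks in *Tip60* cKO lists but 27.4 to 34.5% in control lists lay at the genome-wide background level of their library, and since each genotype had its own input, the input and the genotype cannot be told apart in this difference.

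Acetylation around the TSS was a common property of the genes. All 10 lists held a TSS peak, one that overlaps the 2 kb on either side of the start, for 42 of the 50 genes (84.0%), whereas 44.0% of all 21938 protein-coding genes had one. Of the other 8 genes, 6 had a peak in some lists, namely *Stx1a* in 9, *Rab3c* in 8, *Rab3b* in 7, *Rims3* in 5, *Unc13c* in 5 and *Cplx3* in 3. *Slc17a6* and *Slc17a8* had none. In the 42 genes the summit of the strongest peak lay downstream of the TSS in 38 and upstream in 4, at a median of 268 bp downstream.

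TSS coverage, the percentage of the 4 kb around the TSS that lay under peaks, ranged from no listed peak to most of the window. It was highest in controls at *Cplx2*, which encodes a complexin that clamps and promotes fusion, with 79.4% ± 11.4 (SD, n = 5). *Rab26* with 78.8% ± 11.5, *Slc17a7* with 72.0% ± 5.67, *Syt3* with 69.3% ± 13.2 and *Vamp2* with 66.7% ± 15.7 followed, and neighbours in this order differed by less than the larger SD of the pair. The values of *Syt3*, a synaptotagmin of synapses and secretory cells, were 72.8, 74.9, 70.6, 46.9 and 81.5% in controls and 80.9, 73.1, 82.6, 68.4 and 41.2% in *Tip60* cKO, and those of *Vamp2* were 83.4, 76.8, 64.9, 42.2 and 66.4% in controls and 62.1, 37.1, 57, 38.7 and 29.2% in *Tip60* cKO. Both genes overlapped between the groups. The lowest levels above 0 were those of *Cplx3* with 3.64% ± 4.99, *Rims3* with 5.34% ± 4.95 and *Rab3b* with 6.93% ± 8.40, which likewise lay within their spread.

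The vesicular glutamate transporters, which load glutamate into vesicles, ranged from no TSS peak to broad coverage. *Slc17a7* (VGLUT1; chr7:45163949-45176142, plus strand), the main transporter of excitatory hippocampal neurons, had a TSS coverage of 75.2, 68.8, 78.8, 64.2 and 73.0% in the controls and 75.6, 56.6, 76.5, 65.6 and 31.2% in *Tip60* cKO. *Slc17a6* (VGLUT2; chr7:51622006-51671119) and *Slc17a8* (VGLUT3; chr10:89574020-89621253, minus strand), used by other neuron populations, had no TSS peak in any of the 10 lists at these depths. The groups overlapped for *Slc17a7*, where *Tip60* cKO replicate 5 was lowest (61.1% ± 18.6 in *Tip60* cKO; limma adjusted p = 0.399). The promoters of the 3 transporters are shown because their TSS coverage ranges from broad to no listed peak. Each line gives 200 bases that end 11 bases before the RefSeq start (GRCm38.p6), on the strand of the gene, with CpG dinucleotides in capitals.
Slc17a7, chr7:45163711-45163910: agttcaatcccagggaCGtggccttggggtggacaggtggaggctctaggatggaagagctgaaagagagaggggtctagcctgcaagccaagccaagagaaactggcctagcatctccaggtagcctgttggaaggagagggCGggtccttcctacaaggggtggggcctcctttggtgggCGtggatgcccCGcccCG
Slc17a6, chr7:51621620-51621819: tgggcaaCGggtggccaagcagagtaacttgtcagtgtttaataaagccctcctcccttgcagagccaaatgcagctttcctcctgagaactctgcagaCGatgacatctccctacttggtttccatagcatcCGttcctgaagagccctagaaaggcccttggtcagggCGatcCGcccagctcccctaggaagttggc
Slc17a8, chr10:89621260-89621459: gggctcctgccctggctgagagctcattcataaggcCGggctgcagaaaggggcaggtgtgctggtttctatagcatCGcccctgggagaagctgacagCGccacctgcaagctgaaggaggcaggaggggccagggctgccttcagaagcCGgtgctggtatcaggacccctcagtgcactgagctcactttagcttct

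These stretches held 5, 5 and 4 CpGs, and the longer RefSeq promoter windows, which run from 250 bases before to 50 bases after the start, held 13, 8 and 7. Such windows lay within 2 kb of the TSS for 35 members. Their median was 19 CpGs compared with 7 over all 32817 windows. The 27 of these genes with a TSS peak in all 10 lists had a median of 25 CpGs (range 7 to 46), and the 8 others, with a peak in some lists or in none, a median of 9.5 (range 6 to 19). *Rph3a* with 7 CpGs and *Syt1* with 8 nonetheless had a control TSS coverage of 46.0 and 51.4%, and *Syt2* with 34 CpGs had 12.6%. On either strand the GC box GGGCGG was present in 26 of 35 windows (74.3%, compared with 35.6% of all windows), the cAMP response element TGACGTCA in 2 (5.71% and 1.79%), the shorter TGACG, which the full element contains, in 9 (25.7% and 20.8%), and the E-box CACGTG in 4 (11.4% and 7.15%). The core of the neuronal silencer element RE1, AGCACC and GGACAG separated by 2 bases, was in none of the 35 and in 0.0518% of all windows. These matches are letters in a window and were not tested for binding.

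**Figure D1:**
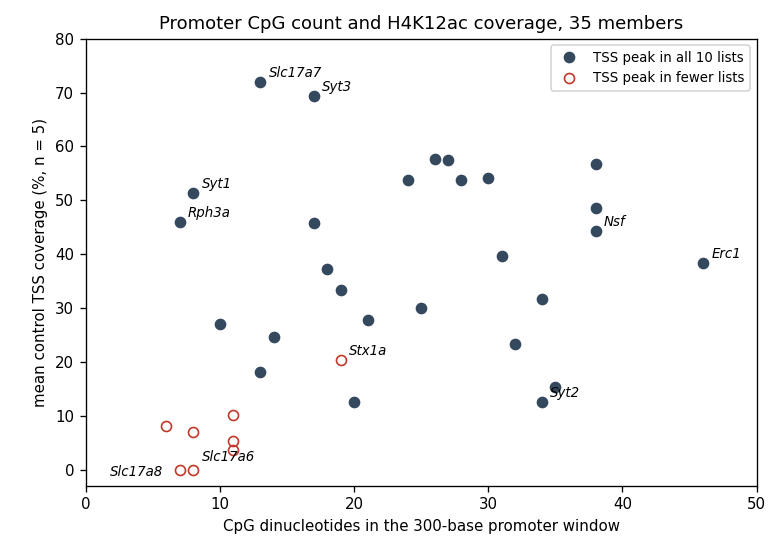
Number of CpG dinucleotides in the promoter window (x axis) and mean TSS coverage in controls in percent (y axis, n = 5) for 35 genes, filled where a TSS peak was present in all 10 lists and open where it was not. All genes above 25% coverage have a peak in all 10 lists, over the full range of CpG numbers from 7 to 46.

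To ask whether H4K12ac at these genes differed between *Tip60* cKO and controls, TSS coverage was compared by limma over all 21672 genes with a TSS peak in at least 2 lists, of which 48 were members. *Syt1* and *Nsf* were called lower, and no member was called higher. These 2 calls (4.17% of 48) stand beside 1.53% of all tested genes called lower and 0.0369% called higher. The background itself was not stable, since the 331 genes called lower became 39 without control replicate 5, 1405 without *Tip60* cKO replicate 1, 700 with equal numbers of peaks and 0 with the replicate number as a block. Coverage was lower in *Tip60* cKO for 43 of the 48 genes with a median difference of -8.87 percentage points, while 81.0% of all tested genes were lower with a median of -4.01. The median difference of the members was wider with a window of 1 kb, as given below under the dependence on the processing. The members also started from a higher level, with medians of 39.1% in controls and 28.3% in *Tip60* cKO compared with 20.2 and 15.3% over all tested genes. The median over members was 46.0, 43.1, 38.6, 30 and 42.3% in the controls and 34.6, 27.6, 35.4, 27.1 and 15.8% in *Tip60* cKO, so that the groups overlapped and *Tip60* cKO replicate 5 was lowest. Within sequencing lane 7 (3 mice per genotype) the median difference was -6.46 and within lane 8 (2 mice per genotype) it was -10.3. In such sorted pools a smaller number of acetylated nuclei and less acetylation per nucleus cannot be told apart.

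**Figure D2:**
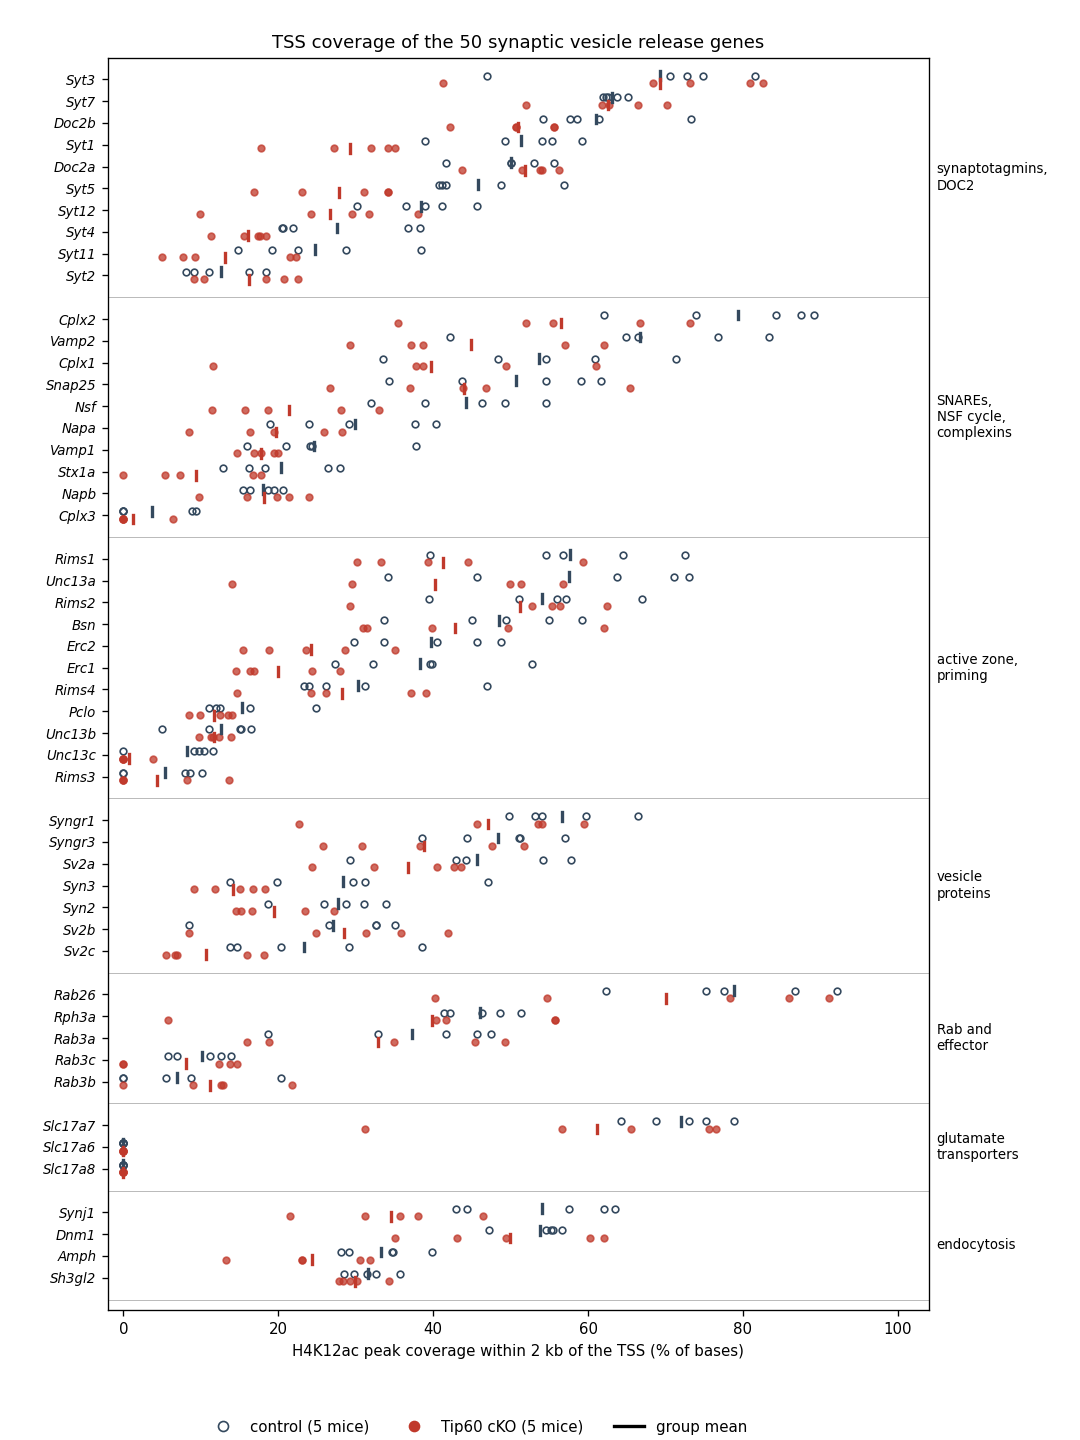
TSS coverage in percent of bases (x axis) of each of the 50 genes (rows, in functional groups) in each control (open) and *Tip60* cKO (filled) mouse, with vertical bars for the group means. *Slc17a6* and *Slc17a8* are at 0 in all lists, and the means of 43 of 48 tested genes are lower in *Tip60* cKO.

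The strength of the strongest peak was compared on a separate scale. Each peak received a rank score, its percentile by fold enrichment within its own list, and a gene took the score of its strongest TSS peak or 0 without a peak. No member passed the limma test (0 of 48; 0.157% of all tested genes were called lower and 0.0784% higher), and 7 had an unadjusted p below 0.05, of which 6 were lower and *Amph* was higher, beside 11.8% of all tested genes with such a p. The smallest adjusted p was 0.163, for *Rab3a*. Scores were lower for 38 of 48 members with a median difference of -2.04, compared with 55.6% of all genes and a median of -0.69. Without overlap between the groups 2 members were lower (*Vamp2* and *Pclo*) and 0 higher, beside 1.62% and 1.93% of all tested genes. The score is bounded at 100, near which several members lie. On the log2 scale the fold enrichment, relative to the median over all genes with a TSS peak in the same list, was lower in 38 of the 42 genes with a peak in all lists, with a median difference of -0.15 (range -0.86 to 0.34). Of all 13004 genes with a TSS peak in every list 61.1% were lower, with a median of -0.059. The members also started from stronger peaks, with a control median rank score of 90.0 compared with 80.7 over all tested genes. The 4 that rose (*Syt2*, *Unc13b*, *Rph3a* and *Amph*) lay below the list median in controls. So did *Napb*, *Sv2b* and *Sv2c*, which were lower. The part of the starting level was not tested.

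**Figure D3:**
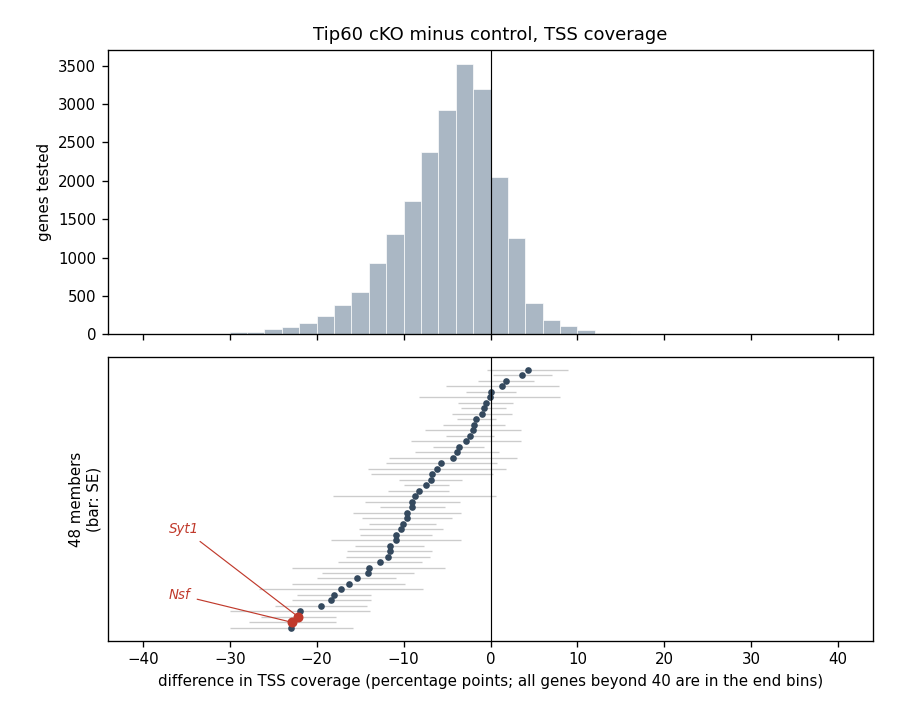
Difference in TSS coverage, *Tip60* cKO minus control, in percentage points (x axis) for all 21672 tested genes (top, number of genes per bin) and for the 48 tested members in order of size (bottom, points with the standard error of limma). *Syt1* and *Nsf* (red) are the only members past the adjusted p threshold, and both distributions lie mainly below 0.

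Among the synaptotagmins and DOC2 proteins, *Syt1* (chr10:108497650-109010982, minus strand) encodes the fast sensor for synchronous release. Its TSS coverage was 54.1, 55.3, 49.3, 38.9 and 59.2% in controls and 35, 27.2, 34.2, 31.9 and 17.8% in *Tip60* cKO, with no overlap between the groups. This was a fall from 51.4% ± 7.80 to 29.2% ± 7.07 (SD, n = 5; difference -22.1 percentage points, SE 4.32, limma adjusted p = 0.0315). When all lists were cut to their 64245 strongest peaks, the difference was -12.3 and the adjusted p 0.286. The call was kept without *Tip60* cKO replicate 1 or 3 or control replicate 4 but lost without any of the other 7 libraries, with adjusted p between 0.0153 and 0.0875 over the 10 omissions. It was also lost with the replicate number as a block (0.106), in lane 7 alone (0.126) and in lane 8 alone (0.430). With a window of 1 kb on either side of the TSS, *Erc1* and *Syt5* were the members called, and *Syt1* and *Nsf* were not (differences -28 and -26.3). The local background at its strongest peak, relative to the genome-wide level, was 1.17 in controls and 1.25 in *Tip60* cKO, and its part in the result was not tested.

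*Syt5* and *Syt4* were the others of this group without overlap between the groups, so that 3 members in all were lower in every *Tip60* cKO mouse than in every control (6.25% of 48, compared with 5.23% of all tested genes) and 0 were higher in every one (0.157% of all). *Syt5*, a synaptotagmin of vesicles, had 41.6, 41.1, 40.7, 48.8 and 56.9% in controls and 23.1, 34.2, 34.1, 31 and 16.9% in *Tip60* cKO (limma adjusted p = 0.0584). *Syt4*, a synaptotagmin that does not bind calcium in the usual way, had 38.3, 36.8, 20.5, 20.6 and 21.9% in controls and 17.4, 17.6, 18.4, 15.6 and 11.3% in *Tip60* cKO (adjusted p = 0.126). By contrast *Syt3* was at 69.3% ± 13.2 and 69.2% ± 16.7, *Syt7*, the sensor for asynchronous release, at 63.2% ± 1.34 and 62.6% ± 6.79, and *Doc2a*, which acts in spontaneous and asynchronous release, at 50.1% ± 5.22 and 51.9% ± 4.88 in controls and *Tip60* cKO. Over the 10 genes of this group 8 were lower and 2 higher, with a median difference of -10.8 percentage points. *Syt2*, the fast sensor of brainstem and inhibitory synapses, was among the 5 genes with the most positive difference in TSS rank score, with 81.4, 72.2, 75.4, 75.3 and 67.2 in controls and 79.3, 72.5, 84.6, 77.3 and 89.4 in *Tip60* cKO (limma adjusted p = 0.515), and its groups overlapped. *Syt11*, *Syt12* and *Doc2b* were at mean differences in TSS coverage of -11.8 to -10.1 percentage points, without a call.

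*Nsf* (chr11:103821782-103954056, minus strand), the ATPase that recycles SNAREs, was the other gene called lower in TSS coverage. The values were 46.3, 54.5, 32, 39.0 and 49.3% in controls and 33, 11.4, 28.1, 18.7 and 15.7% in *Tip60* cKO, so that *Tip60* cKO replicate 1 overlapped the lowest control. The mean fell from 44.2% ± 8.85 to 21.4% ± 8.92 (difference -22.8 percentage points, SE 5.01, limma adjusted p = 0.0492). The call was kept without *Tip60* cKO replicate 1 or control replicate 3 or 4 and with equal numbers of peaks (adjusted p = 0.0237), and lost without any of the other 7 libraries (0.0225 to 0.116 over the 10 omissions), with the replicate number as a block (0.126), in lane 7 alone (0.295) and in lane 8 alone (0.422). Its local background was 1.07 in controls and 1.08 in *Tip60* cKO. *Cplx2* (-22.9) and *Vamp2* (-21.9) had mean differences in TSS coverage as wide, without a call. The promoters of *Syt1* and *Nsf* are shown as the 2 start sites called lower, in the same form as above.
Syt1, chr10:109010986-109011185: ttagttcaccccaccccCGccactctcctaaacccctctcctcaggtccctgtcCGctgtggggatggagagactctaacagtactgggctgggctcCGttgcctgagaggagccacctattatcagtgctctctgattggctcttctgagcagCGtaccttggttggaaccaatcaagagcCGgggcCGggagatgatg
Nsf, chr11:103954067-103954266: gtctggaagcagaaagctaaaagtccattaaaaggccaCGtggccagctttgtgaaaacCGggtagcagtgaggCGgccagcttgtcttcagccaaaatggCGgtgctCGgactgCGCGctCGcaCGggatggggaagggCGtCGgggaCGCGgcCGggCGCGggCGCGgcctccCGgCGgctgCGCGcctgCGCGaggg

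These stretches differed widely in composition, with 6 CpGs and 58.0% G and C at *Syt1* and 24 CpGs and 67.5% at *Nsf*. *Vamp2*, the main SNARE of synaptic vesicles, had the highest mean TSS rank score of the members in controls, 99.4, next to 99.3 at *Dnm1*. Its TSS rank score was 99.3, 99.4, 99.9, 99.3 and 99.1 in controls and 98, 83.3, 90.8, 69.4 and 92.0 in *Tip60* cKO, without overlap, but the limma adjusted p was 0.347. The fold enrichment of this peak was 10.5 ± 1.14 and 5.62 ± 1.86, and its local background was 1.07 times the genome-wide level in controls and 1.70 times in *Tip60* cKO, a ratio of 1.59 that was the highest among the 42 genes (range 0.611 to 1.59, median 0.966). The part of the background in this score was not tested.

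*Cplx2* had a TSS coverage of 89.2, 74.0, 87.5, 62.0 and 84.3% in controls and 66.7, 52.0, 73.1, 55.5 and 35.5% in *Tip60* cKO (limma adjusted p = 0.102). *Stx1a*, a plasma membrane SNARE, had a TSS peak in every list but that of *Tip60* cKO replicate 5, with coverage of 16.2, 18.3, 26.4, 12.8 and 27.9% in controls and 17.7, 16.7, 5.32, 7.30 and 0% in *Tip60* cKO. Its score of 77.3 ± 5.71 and 61.0 ± 34.8 was among the 5 most negative differences (limma adjusted p = 0.673), a place that this 1 list decides. *Cplx3*, a complexin of ribbon synapses and few cortical neurons, had a TSS coverage of 0, 0, 8.90, 0 and 9.32% in controls and 0, 0, 0, 6.35 and 0% in *Tip60* cKO. *Snap25*, the SNARE partner of syntaxin, was at 50.6% ± 11.4 and 43.9% ± 14.3. Of this group 9 of 10 genes were lower in TSS coverage and 1, *Napb*, was higher by less than its spread. *Vamp1*, *Napa* and *Cplx1* had mean differences of -14 to -6.90 percentage points.

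In the active zone group all 11 genes had a lower mean TSS coverage in *Tip60* cKO, with a median difference of -5.64 percentage points and no call. The smallest p-values were those of the scaffold proteins *Erc1* and *Erc2*, while the mean differences of *Unc13a* (-17.2) and *Rims1* (-16.3) were as wide. *Erc1* had 39.8, 39.6, 52.7, 27.3 and 32.2% in controls and 16.3, 27.9, 24.3, 14.5 and 16.9% in *Tip60* cKO (limma adjusted p = 0.0615). *Erc2* had 48.7, 45.7, 29.8, 40.5 and 33.6% in controls and 28.6, 18.8, 35, 23.6 and 15.4% (adjusted p = 0.0892). In both genes 1 or more *Tip60* cKO mice overlapped the controls.

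*Pclo*, which encodes the giant scaffold Piccolo, was the other gene besides *Vamp2* whose TSS rank scores did not overlap. They were 87.0, 81.7, 90.4, 82.3 and 80.8 in controls and 79.3, 78.7, 79.9, 73.8 and 74.8 in *Tip60* cKO (limma adjusted p = 0.333), and its local background was at the genome-wide level in both groups. *Unc13c*, a priming factor known from cerebellar granule cells, had a small TSS peak in 4 of 5 control lists and 1 of 5 *Tip60* cKO lists. Its coverage was 9.70, 10.4, 9.12, 11.5 and 0% in controls and 3.85, 0, 0, 0 and 0% in *Tip60* cKO (adjusted p = 0.130). Only through the control lists did *Unc13c* pass the filter of 2 lists, so this p-value supports no conclusion on its own. *Rims3*, a short RIM protein, had 8.57, 7.95, 10.2, 0 and 0% in controls and 8.20, 0, 0, 13.6 and 0% in *Tip60* cKO. *Unc13a*, the main priming factor of excitatory synapses, was at 57.5% ± 17.0 and 40.3% ± 18.0, and *Unc13b* at 12.5% ± 4.71 and 11.8% ± 1.53. The TSS rank scores of *Unc13b*, among the 5 most positive differences, were 75.8, 78.5, 72.4, 71.7 and 76.0 in controls and 77.8, 82.5, 76.1, 71.9 and 97.6 in *Tip60* cKO (limma adjusted p = 0.600). *Rims2*, *Rims4* and *Bsn* had mean differences in TSS coverage of -5.64 to -2.06 percentage points.

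All 7 genes of vesicle proteins had a lower mean TSS rank score in *Tip60* cKO and 6 had lower coverage, again without a call. *Sv2a*, the vesicle glycoprotein bound by the drug levetiracetam, was at 45.7% ± 11.2 in controls and 36.7% ± 8.23 in *Tip60* cKO, and *Syngr1* at 56.7% ± 6.58 and 47.1% ± 14.5. *Syn2*, *Syn3*, *Sv2c* and *Syngr3* had mean differences of -14.1 to -8.28 percentage points, and *Sv2b* one of 1.36. The window of *Syngr1* also holds the start of *Rpl3*, and 12 members in all share their window with the start of another annotated gene. Among the Rab GTPases *Rab3a*, the most abundant Rab of synaptic vesicles, had TSS rank scores of 90.6, 97.4, 96.6, 83.6 and 98.2 in controls and 81.2, 83.3, 80.5, 85.0 and 78.1 in *Tip60* cKO. Only control replicate 4 and *Tip60* cKO replicate 4 made the groups overlap, the limma adjusted p was 0.163, and its coverage was 37.2% ± 11.8 and 32.9% ± 15.1. Its local background was 1.20 in controls and 1.42 in *Tip60* cKO.

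*Rab3c* had a peak in all 5 control lists and in 3 *Tip60* cKO lists, with coverage of 13.9, 5.80, 6.90, 11.2 and 12.6% and of 13.7, 12.3, 0, 14.6 and 0%. *Rab3b* went the other way, with 0, 5.55, 8.70, 0 and 20.4% in controls and 21.8, 12.8, 8.92, 12.6 and 0% in *Tip60* cKO. Lists without a peak made most of the score difference of *Rab3c*, -33.7, but only part of that of *Rab3b*, 20.7. Where *Rab3b* had a peak, its scores were 70.2, 76.4 and 65.9 in controls and 84.4, 74.5, 76.1 and 80.9 in *Tip60* cKO. Neither gene passed the test (limma adjusted p = 0.503 and 0.734). *Rph3a*, the Rab3 effector rabphilin, had scores of 77.0, 77.3, 71.8, 84.6 and 81.7 in controls and 83.6, 78.7, 83.1, 84.1 and 79.6 in *Tip60* cKO (limma adjusted p = 0.621).

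Of the endocytosis genes all 4 had lower mean TSS coverage. *Synj1*, the lipid phosphatase that uncoats vesicles, had 62.0, 63.5, 44.3, 43.0 and 57.5% in controls and 46.4, 31.2, 35.7, 38 and 21.5% in *Tip60* cKO (limma adjusted p = 0.0743). *Dnm1*, the dynamin that cuts vesicles from the membrane, was at 53.8% ± 3.79 and 49.9% ± 11.4, and *Sh3gl2*, an endophilin, had a mean difference of -1.62 percentage points. *Amph*, which recruits dynamin, had the only TSS rank score with an unadjusted p below 0.05 in the direction of *Tip60* cKO, with 85.5, 77.0, 80.2, 75.9 and 87.2 in controls and 94.4, 89.1, 93.8, 85.1 and 88.6 in *Tip60* cKO (adjusted p = 0.305). At the same start its coverage was lower, with 33.3% ± 4.77 and 24.3% ± 7.47, and its local background was 1.67 in controls and 1.02 in *Tip60* cKO, the lowest ratio of the 42 genes.

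Gene body coverage, the percentage of the gene beyond 2 kb from the TSS that lay under peaks, was tested for 46 members among 12823 genes. *Rab26* was called lower (1 of 46, beside 0.351% of all tested genes called lower and none higher). Its gene, *Rab26* (chr17:24527241-24534210, minus strand), encodes a GTPase that directs vesicles to autophagy. Body coverage was 57.7, 59.7, 50.1, 40 and 55.2% in controls and 29.9, 8.53, 23.6, 8.71 and 0% in *Tip60* cKO, with no overlap. This was a fall from 52.5% ± 7.90 to 14.1% ± 12.2 (difference -38.4 percentage points, SE 6.17, limma adjusted p = 0.0488), while TSS coverage of the same gene was 78.8% ± 11.5 and 70.1% ± 21.7 (adjusted p = 0.591). The difference at its TSS was 3.45 in lane 7 and -27 in lane 8.

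Toward the 3′ end of *Rab26* lies the region chr17:24528301-24530080, 5.02 kb from the TSS, which had a peak in 5 control and 2 *Tip60* cKO lists. It is within 1 kb of annotated starts of *Rab26os*, *Snord60* and *Traf7*, so that acetylation of these genes and of *Rab26* cannot be told apart there. The call was kept without *Tip60* cKO replicate 1 or control replicate 4 and lost without any of the other 8 libraries (adjusted p 0.0269 to 0.130 over the 10 omissions). With 64245 peaks in each list the difference was -21.1 (adjusted p = 0.253), and the call was also lost with the replicate number as a block (0.255), in lane 7 alone (0.205) and in lane 8 alone (0.679).

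*Vamp1*, a vesicle SNARE like *Vamp2*, was the other gene whose body coverage did not overlap (2 of 46, compared with 3.96% of all genes lower without overlap and 0.0468% higher, the latter with 0 members). It was 9.54, 10.1, 9.36, 7.68 and 8.86% in controls and 7.40, 5.36, 3.15, 6.23 and 2.06% in *Tip60* cKO (limma adjusted p = 0.117). Over all members 31 of 46 were lower with a median difference of -0.616 percentage points, compared with 74.2% of genes and -0.528. Without *Tip60* cKO replicate 5 the median of the members was 0.127.

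Body rank scores of members leaned in neither direction. Of 46 genes 22 were lower and 24 higher with a median difference of 0.245, none was called (0.164% of all genes were called lower and 0.0234% higher), and 8 had an unadjusted p below 0.05, of which 6 were higher, beside 10.5% of all tested genes with such a p. Without overlap, *Syngr1* and *Rims2* were higher in *Tip60* cKO and *Syt11* was lower, beside 1.41% of all genes higher and 1.50% lower without overlap. *Rims2*, an active zone organiser, had 79.5, 74.9, 79.5, 67.8 and 82.5 in controls and 88.6, 85.3, 84.4, 92.7 and 87.4 in *Tip60* cKO (limma adjusted p = 0.284). *Syngr1* had 85.7, 88.6, 79.8, 76.6 and 85.6 and 95.7, 92.0, 92.1, 95.6 and 92.1 (adjusted p = 0.205). *Syt11* had 95.5, 97.3, 94.0, 97 and 98.2 and 90.3, 90.0, 88.7, 93.3 and 93.2 (adjusted p = 0.407).

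*Sv2a*, singled out after its values were seen, had no body peak in any control list and scores of 59.2, 71.0, 0, 65.5 and 73.5 in *Tip60* cKO (limma adjusted p = 0.159). Only its *Tip60* cKO lists brought it into the test, so that this p-value supports no conclusion on its own.

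**Figure D4:**
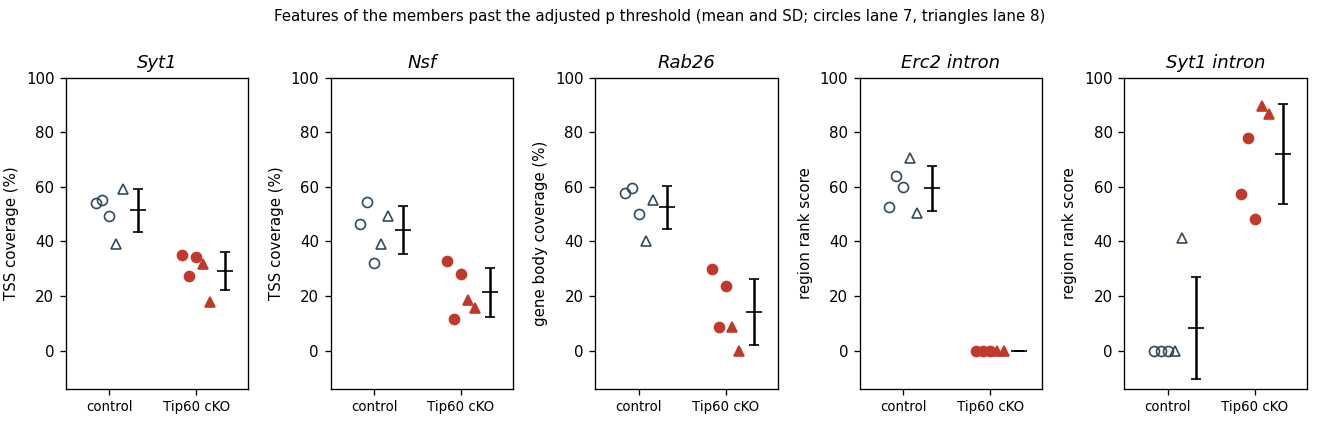
TSS coverage of *Syt1* and *Nsf*, gene body coverage of *Rab26* (percent of bases) and rank scores of the called intron regions of *Erc2* and *Syt1* in each mouse (open controls, filled *Tip60* cKO, circles lane 7, triangles lane 8), with mean and SD. The difference has the same direction in both lanes in each panel.

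To look within the genes, 144781 regions, merged from peaks that recurred in 2 or more lists, were compared by rank score, and 1168 of them lay at the members. *Erc2* held 238 (20.4%) and *Syt1* 170 (14.6%), most of them in introns, followed by *Sh3gl2* with 72, *Nsf* with 48, *Rab3c* with 44 and *Bsn* with 43. Of 83 regions in TSS windows 45 had a peak in all 10 lists (54.2%), compared with 33 of 846 intron regions (3.90%). Scores were lower in *Tip60* cKO for 79.5% of the TSS window regions, 51.1% of the intron regions, 48.9% of the 133 exon regions, 44.2% of the 77 regions at internal transcript starts and 41.4% of the 29 at the start of another gene. Over all 1168 regions 52.1% were lower with a median difference of -0.78, compared with 56.9% and -2.21 over all 144781. Shares by class are not given for all 144781 regions, so the 79.5% cannot be read as particular to the members.

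Of the 1168 regions 1 was called lower and 1 higher (0.0856% each), compared with 0.476% of all regions called lower and 0.0863% called higher. Without overlap 13 were lower and 8 higher (1.34% and 0.783% of all regions). The 2 called regions lie deep in introns and away from any annotated start. The region called lower is chr14:27987597-27988013 in *Erc2*, 365 kb from its TSS. It had a peak in all 5 control lists, with rank scores of 52.7, 64.0, 59.9, 70.6 and 50.3, and in no *Tip60* cKO list (limma adjusted p = 0.000697). Only the control lists brought it past the filter of 2 lists, and every *Tip60* cKO list scores 0 for want of a peak. This p-value and those that follow for the region therefore support no conclusion on their own. The call was kept without any 1 of the 10 libraries (adjusted p 0.00122 to 0.00232), and was lost with a mean-dependent robust prior (0.256), with the replicate number as a block (0.0526) and in lane 8 alone (0.156). With equal numbers of peaks the region was not among those tested and has no value. Its local background was 1.45 in controls and has no value in *Tip60* cKO, where no peak was listed.

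The region called higher is chr10:108573387-108573861 in *Syt1*, 437 kb from its TSS and thus in a gene whose TSS coverage was called lower. Its scores were 0, 0, 0, 0 and 41.4 in controls and 57.4, 77.9, 48.2, 89.7 and 86.8 in *Tip60* cKO, without overlap (difference 63.7, SE 11.5, limma adjusted p = 0.0466). With a peak in only 1 control list, it too passed the filter of 2 lists through the *Tip60* cKO lists, which limits its p-values likewise. This call was kept only without *Tip60* cKO replicate 3 or control replicate 5 among the 10 omissions (adjusted p 0.00834 to 0.107), and was lost with a q threshold of 0.01 (0.279), equal numbers of peaks (0.293), the robust prior (0.214), the replicate number as a block (0.116) and in lane 8 alone (0.316). For both regions 200 bases around the median summit are shown on the strand of the gene (GRCm38.p6), with CpGs in capitals. Each holds 1 CpG, compared with 4 to 24 in the promoter stretches above, and that of *Erc2* holds the motif TGACG.
Erc2 intron, chr14:27987707-27987906: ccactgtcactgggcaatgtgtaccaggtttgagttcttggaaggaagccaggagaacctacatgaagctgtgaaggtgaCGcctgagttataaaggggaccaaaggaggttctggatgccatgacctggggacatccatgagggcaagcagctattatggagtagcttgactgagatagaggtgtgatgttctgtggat
Syt1 intron, chr10:108573524-108573723: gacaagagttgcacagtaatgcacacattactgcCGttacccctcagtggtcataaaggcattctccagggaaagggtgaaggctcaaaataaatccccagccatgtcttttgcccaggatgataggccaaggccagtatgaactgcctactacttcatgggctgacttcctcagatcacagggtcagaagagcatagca

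**Figure D5:**
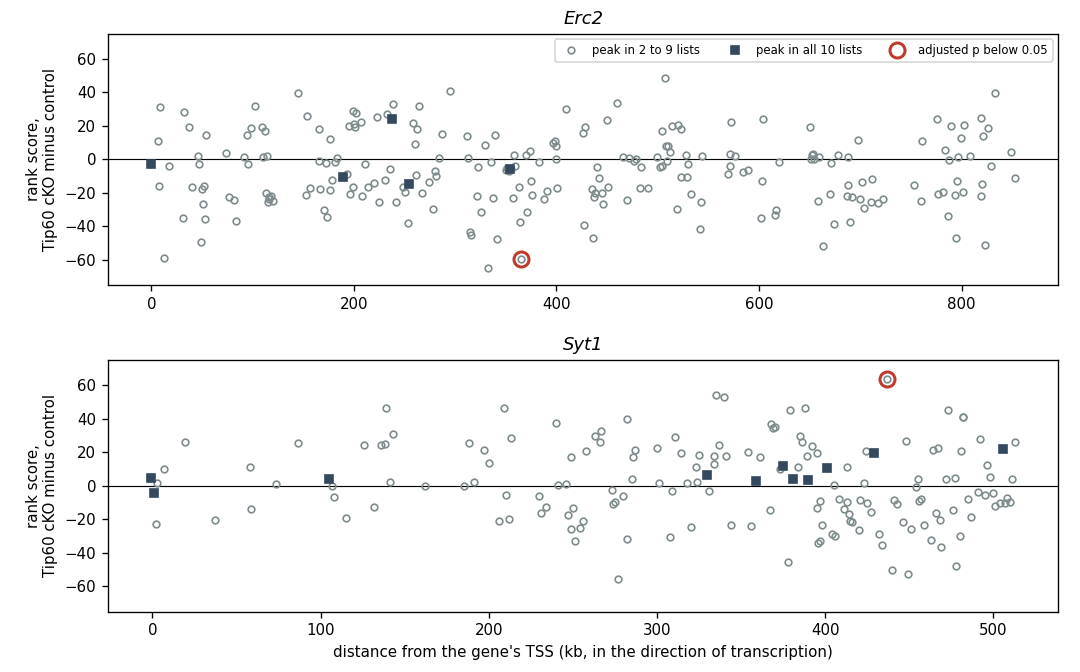
Rank score difference, *Tip60* cKO minus control (y axis), of each region of *Erc2* and *Syt1* by its distance from the TSS in kb (x axis), open for peaks in 2 to 9 lists and filled for peaks in all 10. The called regions (red rings) lie at 365 and 437 kb. A list without a peak scores 0, so the widest differences can come only from regions missing in some lists.

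Another 8 regions had the smallest p-values without passing the threshold (limma adjusted p 0.0513 to 0.140). Lower in *Tip60* cKO were chr10:108734047-108734729 in *Syt1*, chr14:27953896-27955112 and chr14:27634551-27635335 in *Erc2*, and chr6:125218141-125219077 at an internal start of *Vamp1*, each with a peak in 5 control lists and 1 *Tip60* cKO list, and the *Rab26* region described above. Higher in *Tip60* cKO were chr1:22708850-22709772 in *Rims1*, chr7:75142398-75143233 in *Sv2b* and chr13:110139105-110140515 in *Rab3c*, each with a peak in 5 *Tip60* cKO and 2 control lists. The 2 controls with a peak at these last 3 regions were replicates 1 and 5 each time. The regions with a peak in only 1 *Tip60* cKO list passed the filter of 2 lists through the control lists. Their p-values therefore support no conclusion on their own. Of the 9 named regions with a local background in both genotypes, 8 had the higher background in the genotype with fewer peaks, where the value comes from only 1 or 2 lists. Examples are 1.99 in the 1 *Tip60* cKO list with a peak and 1.12 in the 5 controls for the *Syt1* region chr10:108734047-108734729, and 1.14 in the 5 *Tip60* cKO lists and 1.24 in 2 controls for the *Sv2b* region. The part of the input in these differences was not tested.

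Regions found in at least 4 more control than *Tip60* cKO lists numbered 23 of 1168 (1.97%, compared with 2.27% of all regions), and the opposite was seen for 6 (0.514% and 0.497%). *Erc2* contributed 10 to the former and none to the latter, and *Syt1* 4 and 3.

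For comparison, 64 further genes of vesicle release and recycling (of 65 listed) were examined, of which 49 had a TSS peak in all 10 lists and 6 had none. None of the 58 tested in TSS coverage was called, 49 were lower and 9 higher, and the median difference was -5.95 percentage points. Over all tested genes 81.0% were lower with a median of -4.01, and 1.53% were called lower and 0.0369% higher. The smallest adjusted p by limma was 0.0584 for *Stxbp5*, which encodes the SNARE-binding protein tomosyn. In TSS rank score 34 were lower and 24 higher (median -1.22), compared with 55.6% of all tested genes lower (median -0.69). No gene of this list was called in TSS rank score, gene body coverage or gene body rank score.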

How the data were processed

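H4K12ac ChIP-Seq libraries of 5 *Tip60* cKO and 5 control mice were used as peak lists, called by the authors for each mouse (MACS 2.1.0.20140616, mm10, q below 0.1, pooled input of the genotype as background). The deposited pileup is the coverage signal where a peak is highest, fold enrichment is deposited as the ratio of pileup to local background, and the authors give −log10 p-values and q-values. Only peaks and no reads were used, so that a missing peak means only that none was called from the 22864189 to 37923809 tags of that mouse. Errors are the spread over the 5 libraries of a genotype.

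TSSs and genes came from GENCODE M21. Windows of 2 kb on either side of the TSS and gene bodies beyond (genes above 4 kb) were scored by coverage and by rank score. The rank score is the percentile of the strongest peak by fold enrichment among all TSS windows, or all gene bodies, of the same list. Consensus regions were merged peaks present in at least 2 of 10 lists (144781 of 257454). Their rank score is the same percentile among all consensus regions. The local background was obtained from pileup and fold enrichment relative to its genome-wide level, only where a list holds a peak. All features with a peak in at least 2 lists were compared with limma 3.58.1 in R 4.3.3 (lmFit, eBayes, two-sided, Benjamini-Hochberg over all features, threshold 0.05). Tables were made with Python 3.11.15, numpy 2.4.6 and pandas 2.3.3. Lanes were read from the file names. On what a replicate is, the labels give only a number. Each library was taken as 1 mouse, and the p-values measure the spread between these libraries. No list shared more than 1 identical peak with another.

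The members, groups, gene lists and alternatives were chosen with earlier results of these data known. Genes named are those called, those without overlap between genotypes, the 5 highest and 5 lowest in control TSS coverage, the 5 largest falls and rises in mean TSS rank score and those without a TSS peak in a list, 27 in all, besides the 10 regions with the smallest p-values and further members chosen as examples after their values were seen. Promoter windows were matched by symbol for 37 of 50 genes, 35 within 2 kb of the TSS. Alternatives were a q threshold of 0.01, equal numbers of peaks, ranking by pileup, a 1 kb window, all transcript starts, an overlap of 200 bases, a peak in at least 5 or 1 lists, a mean-dependent robust prior, a replicate block, lane as a covariate, each lane alone and each library left out.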

Additional observations from a re-analysis of the deposited data

Results flagged for a closer look

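Of 63 groups of 5 values examined, 4 had a mouse far from the rest of its group by Dixon's gap (for continuous values chance gives about 5%). In 3 of them a single list held a peak, so that the gap fills the whole range by construction and this rate does not apply. The called *Syt1* intron region had a rank score of 41.4 in control replicate 5 and 0 in the other 4 controls. *Cplx3* had a TSS coverage of 6.35% in *Tip60* cKO replicate 4 and 0 in the other 4. *Unc13c* had 3.85% in *Tip60* cKO replicate 1 and 0 in the other 4, and 0% in control replicate 5, where the others had 9.12 to 11.5%.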

How the results depend on the processing

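No member was called in TSS rank score under any alternative for which calls were counted, which leaves out each lane alone. TSS coverage calls, 2 in the main comparison (*Syt1* and *Nsf*), numbered 3 with equal numbers of peaks (*Cplx2*, *Nsf* and *Syngr1*), 3 with lane as a covariate (*Erc1*, *Nsf* and *Syt1*), 1 with genes of at least 1 list, 0 with a replicate block, and 0 to 6 with each library left out (6 without control replicate 4, 3 without *Tip60* cKO replicate 1). Over all genes 331 of 21672 were called lower and 8 higher in the main comparison. These counts became 923 and 8 of 21492 without control replicate 4, and 1405 and 11 of 21293 without *Tip60* cKO replicate 1. They were 700 and 34 of 19377 with equal numbers of peaks and 640 and 13 of 21672 with lane as a covariate. The 1 gene body coverage call was lost (0) with q below 0.01, equal numbers of peaks, genes of at least 1 list, the robust prior and a replicate block, and numbered 0 to 1 with each library left out. Over all genes 45 were called lower and 0 higher in the main comparison, and 0 to 249 lower and 0 to 1 higher over the omissions. Without *Tip60* cKO replicate 3, 1 gene body rank score (*Sv2a*, higher) was called, beside 36 genes lower and 6 higher of all 12639. Over all omissions 0 to 1 members were called. Only *Tip60* cKO lists brought *Sv2a* into this test, so that its call supports no conclusion on its own. Region calls, 2 in the main comparison, numbered 4 with q below 0.01 (the *Erc2* region among them, that of *Syt1* not), 4 with equal numbers of peaks and 1 with the robust prior (neither main region in both settings), 8 with regions of at least 5 lists (both), 0 with a replicate block and 2 to 10 with each library left out (10 without control replicate 4). Over all regions 689 were called lower and 125 higher of 144781 in the main comparison. These counts were 927 and 235 of 69982 with at least 5 lists, and 1271 and 140 of 140337 without control replicate 4. With equal numbers of peaks they were 393 and 243 of 86800, and with a replicate block 227 and 27 of 144781. Same-numbered mice were not paired, since correlations of their deviations in TSS rank score were between -0.0375 and 0.0552 and in TSS coverage between -0.151 and 0.135. The cause of these shifts was not tested. The median difference of members in TSS coverage ran from -14 (window of 1 kb) to -6.46 (lane 7 alone), that in TSS rank score from -2.94 to -1.58, and that in gene body coverage from -1.49 to 0.127, turning its sign without *Tip60* cKO replicate 5. Of 450 TSS rank score differences of 25 named genes under alternatives, 436 moved by less than the replicate SD and 14 by more. Depth limits what a missing peak means, most of all in *Tip60* cKO replicate 5.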
